A study of Mus musculus with 35 samples.

Results

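The sodium-proton exchanger genes Slc9a8, Slc9a3 and Slc9a2 and the scaffold gene Slc9a3r1 were followed in whole kidneys of diabetic and control mice. The 4 genes were found through the annotation of the array, on which 10 of the 45101 probe sets name 1 of them: 4 for Slc9a8, 2 for Slc9a3, 1 for Slc9a2 and 3 for Slc9a3r1. The set was chosen because the brightest probe set of Slc9a8 was lower in diabetic kidneys at each age, and the others were set beside it as relatives. The differences of Slc9a8 between diabetic and control kidneys are therefore given as a description without a test. The arrays came from FVB/NJ mice aged 2, 4 or 8 months. The diabetic groups were OVE26 mice, whose calmodulin transgene, expressed in pancreatic beta cells, leads to insulin deficiency early in life, and control mice were of the same strain and ages. The 2-month and the 8-month sets each hold 6 arrays per group, and the 4-month set holds 7 diabetic and 4 control arrays. The labels give no sex. The labels do not say whether each array came from a separate animal, so the errors measure the spread between these arrays.

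Sodium-proton exchangers carry sodium into a cell in exchange for a proton, and in the kidney this reclaims filtered sodium and bicarbonate. Slc9a3 encodes NHE3, the main exchanger of the brush border of the proximal tubule, which is also found on the luminal side of the thick ascending limb. Slc9a8 encodes NHE8, an exchanger of the proximal tubule brush border and of intracellular membranes that is known to be prominent early in postnatal life. Slc9a2 encodes NHE2, a luminal exchanger of more distal segments. Slc9a3r1 encodes NHERF1, a protein with PDZ domains that ties NHE3 and the phosphate transporter of Slc34a1 to the cytoskeleton through ezrin. Whole-kidney RNA holds every cell type, and fewer cells of a type and less RNA per cell cannot be told apart in it.

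All values are log2 signals as deposited, and a difference is the diabetic minus the control mean, ± the standard error (SE) of a linear model fitted to every gene over the 35 arrays. A gene was called when its p, adjusted over the 13004 genes tested, was under 0.05. The precision is limited by how many arrays there are. Signals of different probe sets cannot be set against each other. Of the 10 probe sets, 8 passed the filter on dim signals. At 2 months the arrays numbered 5 and 6 of both groups stood apart from the rest, with scores from 9.3 to 36.6 on principal component 1 of that age, which held 42.8% of the variance, against -14.1 to -7.2 for arrays 1 to 4. In control 6 of that age the 3' probe set of beta-actin exceeded the 5' one by 2.56 on the log2 scale, and on the other arrays by at most 1.35. At 4 months controls 3 and 4 stood apart, at 18 and 18.6 against at most 6.2 for the others. Slc12a1, which marks the thick ascending limb, was at 12.54 or above on every array, and Slc34a1, which marks the proximal tubule, at 12.84 or above.

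Slc9a8 was the member with the largest differences. At 2 months the control arrays ran from 9.19 to 10.02 with a median of 9.63 on its brightest probe set (1454865_at), and the diabetic arrays from 8.25 to 8.80 with a median of 8.46. At 4 months the controls stood at 9.32, 9.05, 9.81 and 9.41, and the diabetic arrays ran from 7.93 to 8.79 with a median of 8.17. At 8 months the controls ran from 9.05 to 9.70 with a median of 9.36, and the diabetic arrays from 7.67 to 8.80 with a median of 7.97. Every diabetic array lay below every control array of its age.

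The group means of Slc9a8 were 9.59 ± 0.30 (SD, n = 6) in control and 8.49 ± 0.22 (SD, n = 6) in diabetic kidneys at 2 months, a difference of -1.10 ± 0.18, or 2.14-fold. They were 9.40 ± 0.31 (SD, n = 4) and 8.34 ± 0.40 (SD, n = 7) at 4 months, a difference of -1.06 ± 0.19, or 2.08-fold. They were 9.36 ± 0.23 (SD, n = 6) and 8.06 ± 0.41 (SD, n = 6) at 8 months, a difference of -1.30 ± 0.18, or 2.46-fold. In the order of the 6 means the controls of 2, 4 and 8 months came first and the diabetic groups of 2, 4 and 8 months followed. Neighbours within the controls, and within the diabetic groups, differed by less than 1 SD. The second brightest probe set gave another order, at 7.01, 8.21 and 7.92 in controls and 6.69, 7.36 and 6.94 in diabetic kidneys. The mean of all probe sets on an array also differed between the ages, as given below, and its part in these orders was not tested. Of all genes, 0.961%, 2.44% and 4.28% had every diabetic array below every control array at 2, 4 and 8 months, which is part of how Slc9a8 was chosen. On the brightest probe set the difference was -1.05 in the 2-month arrays 1 to 4 and -1.19 in arrays 5 and 6. It was -0.85 at 4 months without controls 3 and 4.

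**Figure D1:**
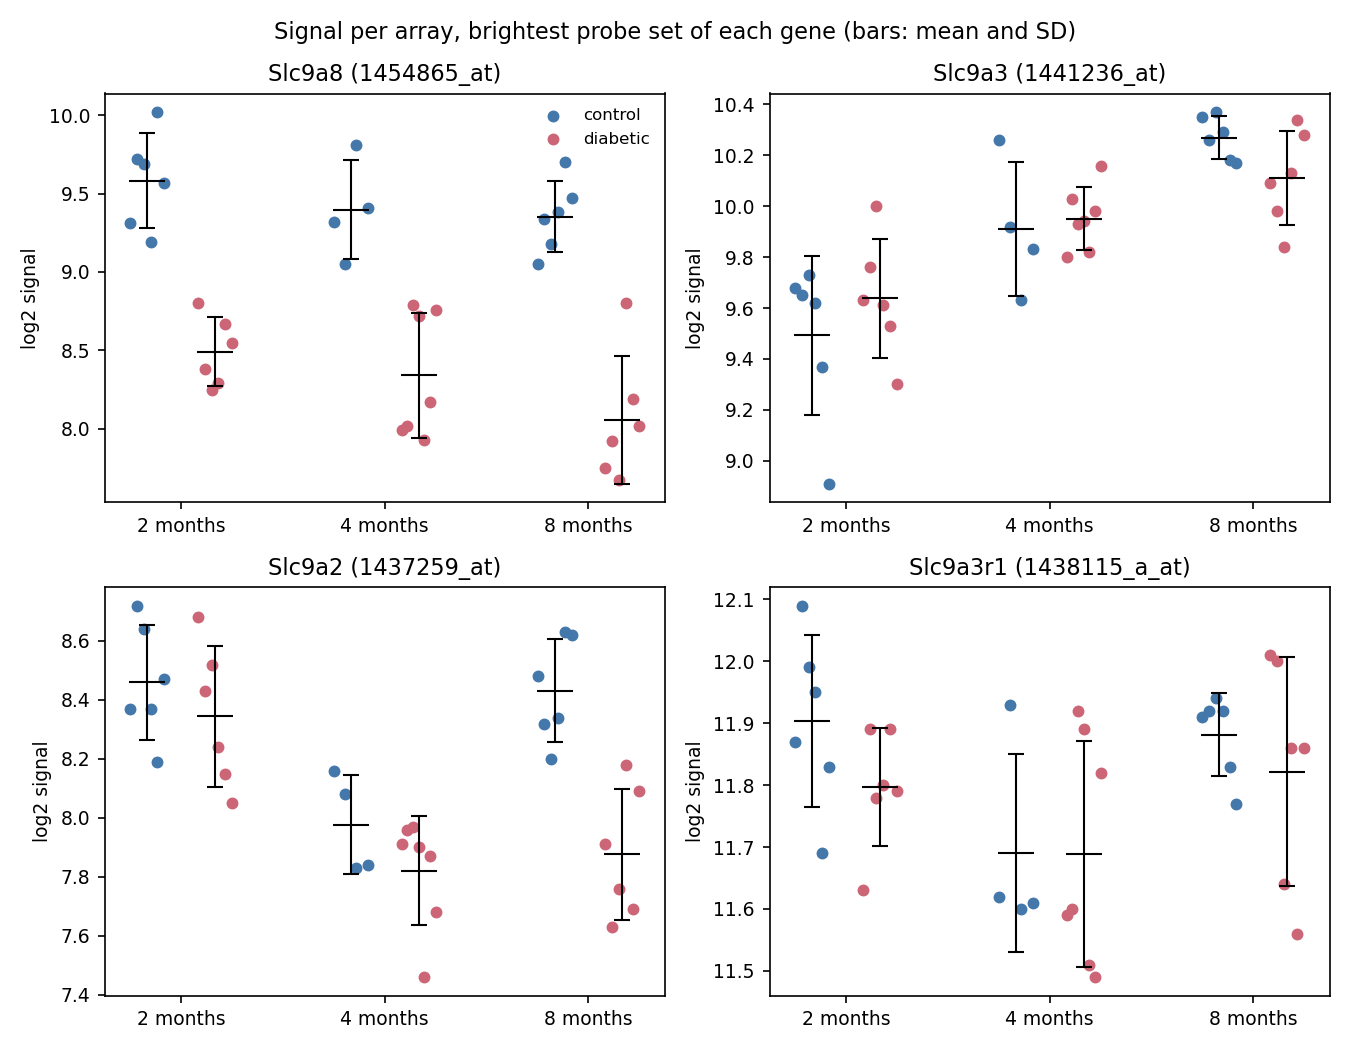
Log2 signal of the brightest probe set of Slc9a8, Slc9a3, Slc9a2 and Slc9a3r1 (vertical axes, each with its own range) in control (blue) and diabetic (red) kidneys at 2, 4 and 8 months, 1 point per array, with the mean and SD of each group in black. Slc9a8 shows no overlap between the groups at any age, Slc9a2 shows none at 8 months, and the groups of Slc9a3 and Slc9a3r1 overlap at all 3 ages.

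The diabetic arrays were not uniform in Slc9a8. At 4 months diabetic arrays 3, 4 and 7 had Slc9a8 at 8.79, 8.72 and 8.76, and arrays 1, 2, 5 and 6 at 7.99, 8.02, 7.93 and 8.17. These 7 arrays fell into the same sets on principal component 1 of that age, which held 29.4% of the variance and where arrays 3, 4 and 7 scored 0.6, 0.1 and -1.1 and the other 4 between -13.1 and -9.9. The part of that component in the Slc9a8 values was not tested. At 8 months diabetic array 4 had the highest Slc9a8 signal of its group, 8.80, while the other 5 ran from 7.67 to 8.19. Array 4 also had the lowest signals of the injury genes Lcn2 (8.07, against 9.74 to 11.67) and Havcr1 (8.21, against 9.20 to 11.03). Array 3, with the lowest Slc9a8 signal, had the highest Lcn2 and Havcr1 signals. But array 1, with the next lowest Slc9a8 signal (7.75), had the next lowest Lcn2 signal after array 4 (9.74). At 4 months diabetic arrays 3, 4 and 7 had Lcn2 at 6.44, 6.42 and 6.39, within the 5.77 to 6.67 of arrays 1, 2, 5 and 6. The order of these single arrays was not tested.

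The 4 probe sets of Slc9a8 did not give the same picture. The second brightest (1426274_at) also separated the groups at 4 months, with controls at 8.26, 7.77, 8.72 and 8.08 and diabetic arrays from 7.04 to 7.62, a difference of -0.85 ± 0.28. At 8 months its controls ran from 7.63 to 8.40 and its diabetic arrays from 6.52 to 7.62, a difference of -0.98 ± 0.26. At 2 months its groups overlapped, at 6.27 to 8.62 in controls and 6.09 to 7.39 in diabetic kidneys, with a difference of -0.32 ± 0.26. The third probe set (1430932_at), with a mean of 5.33 near the filter at 5.273, stood at -0.27 ± 0.14, -0.17 ± 0.15 and -0.32 ± 0.14 at 2, 4 and 8 months, with overlap at each age. The dimmest (1431205_at), with a mean of 4.90, lay below the filter and stood at 0.02, 0.11 and -0.08. After the group means were taken off, the 2 brighter probe sets correlated with r = 0.63 over the 35 arrays, and the 2 dimmer ones correlated with the brightest at -0.07 and 0.27. These correlations are descriptions, and the probe sets share their arrays. With the 4 probe sets averaged Slc9a8 stood at -0.42, -0.49 and -0.67 at 2, 4 and 8 months.

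**Figure D2:**
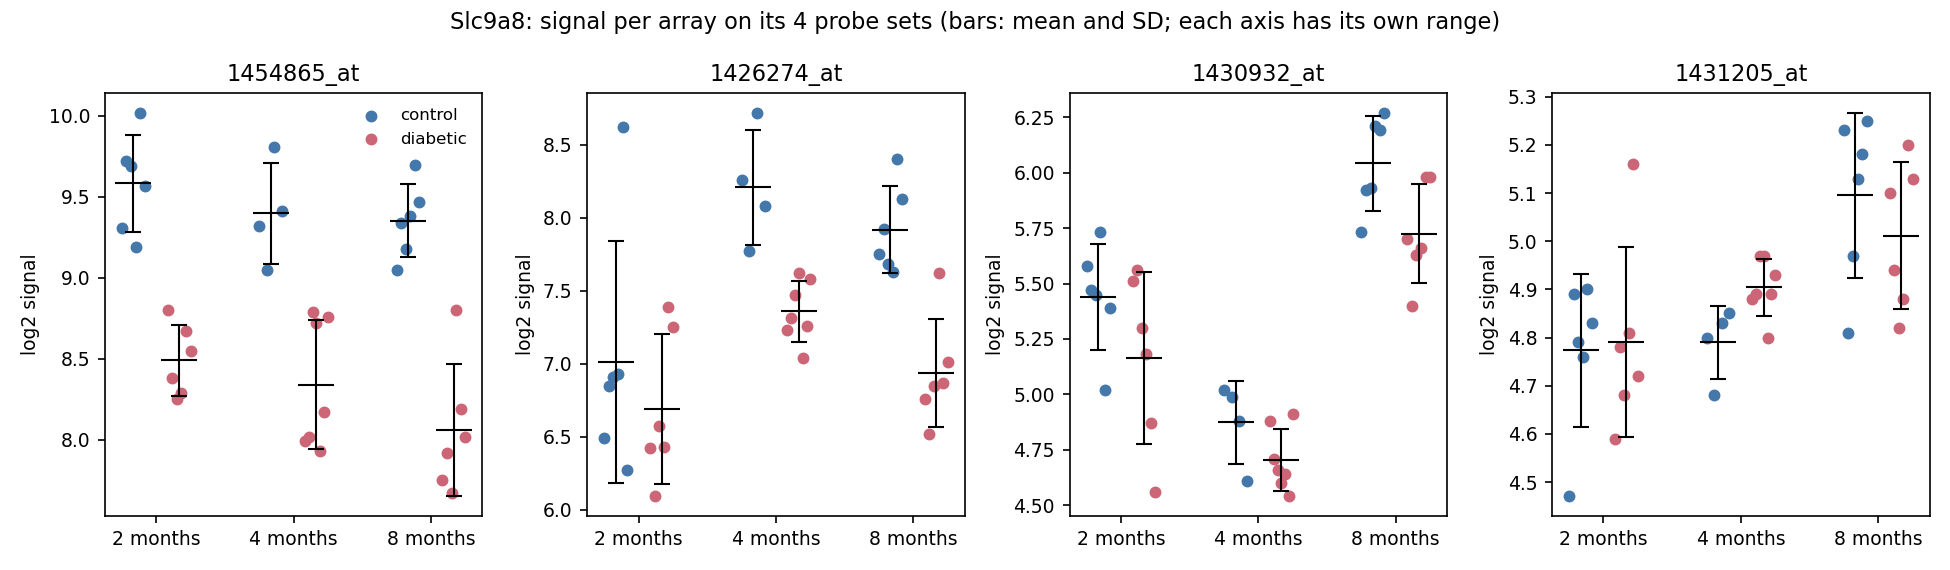
Log2 signal of each of the 4 Slc9a8 probe sets (vertical axes, each with its own range) in control (blue) and diabetic (red) kidneys by age, 1 point per array, with the mean and SD in black. The 2 brighter probe sets on the left separate the groups at 4 and 8 months, the brightest also at 2 months. On the second brightest the groups of 8 months nearly touch, with a diabetic array at 7.62 and a control at 7.63. The 2 dimmer probe sets on the right overlap at every age.

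Among the 13004 genes Slc9a8 had the 9th lowest difference at 2 months, the 9th lowest at 4 months and the 15th lowest at 8 months. Genes called lower at all 3 ages numbered 32, or 0.246% of those tested, and 13 genes (0.1%) were called higher at all 3. Set beside the 32 by the size of its smallest fall alone, Slc9a8 lay after Spidr and Anxa13 and before Mdk. Mdk stood at -1.05, -1.06 and -1.12 at 2, 4 and 8 months. At the edge of being called lower at all 3 ages, Spats2l (-0.73, -0.56 and -0.69) and Tmtc4 (-0.45, -0.33 and -0.44) lay just inside. Cdh2 (-0.55, -0.71 and -0.67) and Kcnj10 (-0.29, -0.41 and -0.39) lay just outside. The members were chosen on these differences, and nothing is read from the place of Slc9a8. All diabetic arrays lay below all control arrays at the 3 ages for 24 genes (0.185%).

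That choice rested on Slc9a8, and the other 3 members were tested. They were named with earlier results of these data known, so their tests are not independent of these data. Of these 3 members 0 were called at 2 months, where 2.54% of all genes were called (1.78% lower and 0.754% higher). At 4 months 0 were called, where 0.969% of all genes were (0.554% lower and 0.415% higher). At 8 months 1 was called, where 16.8% of all genes were (6.95% lower and 9.87% higher). At 2 and 4 months 0 of the 3 had an unadjusted p under 0.05 in limma either. With the replicate number as a block, which pairs same-numbered arrays within each age, 553 genes in place of 330 were called at 2 months. The adjusted p of Slc9a3, Slc9a2 and Slc9a3r1 at that age were then 0.442, 0.544 and 0.521 in limma.

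Among the members tested, Slc9a2 was the only one called at 8 months, where it was lower in diabetic kidneys. Its controls ran from 8.20 to 8.63 with a median of 8.41 at that age, and its diabetic arrays from 7.63 to 8.18 with a median of 7.83. Every diabetic array lay below every control array, as for 4.28% of all genes at 8 months. The highest diabetic array came close to the lowest control, at 8.18 against 8.20. The means were 8.43 ± 0.18 (SD, n = 6) and 7.87 ± 0.23 (SD, n = 6), a difference of -0.56 ± 0.11, or 1.47-fold, with an adjusted p of 0.000529 in limma. Leaving out any 1 of the 12 arrays gave differences between -0.62 and -0.51 and adjusted p of at most 0.00242 in limma.

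At the younger ages the Slc9a2 groups overlapped. At 2 months the controls ran from 8.19 to 8.72 and the diabetic arrays from 8.05 to 8.68, a difference of -0.11 ± 0.11 (95% interval -0.34 to 0.12; adjusted p of limma = 0.702). At 4 months the controls stood at 8.16, 8.08, 7.83 and 7.84 and the diabetic arrays ran from 7.46 to 7.97, a difference of -0.16 ± 0.12 (95% interval -0.41 to 0.09; adjusted p of limma = 0.725). Controls 3 and 4, which stood apart, held the lower values, and without them the difference was -0.30. The diabetes effect on Slc9a2 was lower at 8 than at 2 months by 0.44 ± 0.16, which was not called (adjusted p of limma = 0.117). It was called after quantile normalization of all arrays (-0.48, adjusted p of limma = 0.0386) or within each age (-0.48, adjusted p of limma = 0.0446). The array gave Slc9a2 only 1 probe set, so no second one could be set beside these values.

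Slc9a3, the gene for NHE3, did not pass the test at any age. At 2 months the controls ran from 8.91 to 9.73 with a median of 9.64 on its brightest probe set (1441236_at), and the diabetic arrays from 9.30 to 10 with a median of 9.62. The difference was 0.14 ± 0.12 (95% interval -0.09 to 0.38; adjusted p of limma = 0.614). At 4 months the controls stood at 10.26, 9.92, 9.63 and 9.83 and the diabetic arrays ran from 9.80 to 10.16, a difference of 0.04 ± 0.13 (95% interval -0.22 to 0.30; adjusted p of limma = 0.960). Without controls 3 and 4 the 4-month difference turned to -0.14. At 8 months the controls ran from 10.17 to 10.37 and the diabetic arrays from 9.84 to 10.34, a difference of -0.16 ± 0.12 (95% interval -0.40 to 0.08; adjusted p of limma = 0.404). The second probe set of Slc9a3 (1432771_at), with a mean of 5.12, was below the filter and stood at 0.04, 0.06 and -0.01.

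NHE3 transcripts are known to follow the day and night cycle in rodent kidney, and clock genes were uneven between these arrays, so the promoter of Slc9a3 is shown beside that of Slc9a8. Promoters of 3 of the 4 members were matched in RefSeq (GRCm38.p6). The 250 bases before the start of Slc9a3 are chr13:74121163-74121412 and those of Slc9a8 are chr2:167421460-167421709, both on the plus strand. Capitals mark the E-box CACGTG, the palindrome that clock proteins bind, and the GC box GGGCGG on either strand (CCGCCC on the minus strand).
Slc9a3: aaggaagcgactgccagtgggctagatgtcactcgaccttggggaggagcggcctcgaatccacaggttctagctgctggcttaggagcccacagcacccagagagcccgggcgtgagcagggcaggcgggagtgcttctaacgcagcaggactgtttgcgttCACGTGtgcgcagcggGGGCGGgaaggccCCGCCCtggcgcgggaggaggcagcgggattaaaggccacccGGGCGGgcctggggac
Slc9a8: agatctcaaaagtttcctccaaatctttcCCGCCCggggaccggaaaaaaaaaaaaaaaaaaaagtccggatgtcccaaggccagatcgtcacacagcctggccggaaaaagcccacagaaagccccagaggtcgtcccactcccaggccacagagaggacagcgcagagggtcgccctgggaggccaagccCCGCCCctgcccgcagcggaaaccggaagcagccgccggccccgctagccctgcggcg

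The Slc9a3 window holds 1 E-box, whose first base lies 87 bases before the start, and 3 GC boxes. The Slc9a8 window holds 0 E-boxes and 2 GC boxes, and that of Slc9a3r1 holds 0 and 3. Of all 32851 windows of this length in the table, 6.02% hold an E-box and 32.7% a GC box. The matches describe the letters and do not show binding.

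Dbp, a clock-controlled transcription factor gene, ran from 7.32 to 11.62 over the 35 arrays. The lowest Dbp signals of 2 months were those of diabetic arrays 5 and 6 (8.26 and 7.95), control 6 (8.87) and diabetic array 1 (9.29), and the lowest of 4 months those of controls 3 and 4 (8.75 and 8.02). After the group means were taken off, Slc9a3 and Dbp correlated over the 35 arrays with Pearson r = 0.49 (two-sided permutation p = 0.012, adjusted over the 4 members 0.048) and Spearman rho = 0.50 (permutation p = 0.00773, adjusted 0.0309). Arrays were permuted within their group, and the relation was looked for after the clock genes had been seen to be uneven. The permutation takes the arrays of a group as interchangeable, but the 2-month arrays 5 and 6 stood apart. These p therefore cannot tell a relation with Dbp from that split of the arrays. Without the 2 arrays farthest from the median of Dbp, diabetic array 5 of 8 months and diabetic array 6 of 2 months, r was 0.56. The former, with Dbp at 7.32 and Slc9a3 at 10.34, ran against the relation.

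The relation of Slc9a3 with Dbp was uneven between the ages. It was r = 0.79 over the 12 arrays of 2 months but 0.24 over the 8 of them numbered 1 to 4, 0.43 over the 11 arrays of 4 months and -0.01 over the 12 of 8 months. At 8 months diabetic array 5 had the lowest Dbp signal of all, 7.32, and the highest Slc9a3 signal of its group, 10.34. Slc9a8 had r = -0.30 with Dbp (permutation p = 0.0969, adjusted 0.129) and rho = -0.40 (permutation p = 0.0164, adjusted 0.0328), with -0.58, -0.50 and 0.04 at 2, 4 and 8 months, -0.81 over the 2-month arrays 1 to 4 and -0.30 without the same 2 arrays. Slc9a2 had r = 0.37 (permutation p = 0.0633, adjusted 0.127) and rho = 0.37 (permutation p = 0.0656, adjusted 0.0875). Slc9a3r1 had r = 0.15 (permutation p = 0.434, adjusted 0.434) and rho = 0.16 (permutation p = 0.393, adjusted 0.393).

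**Figure D3:**
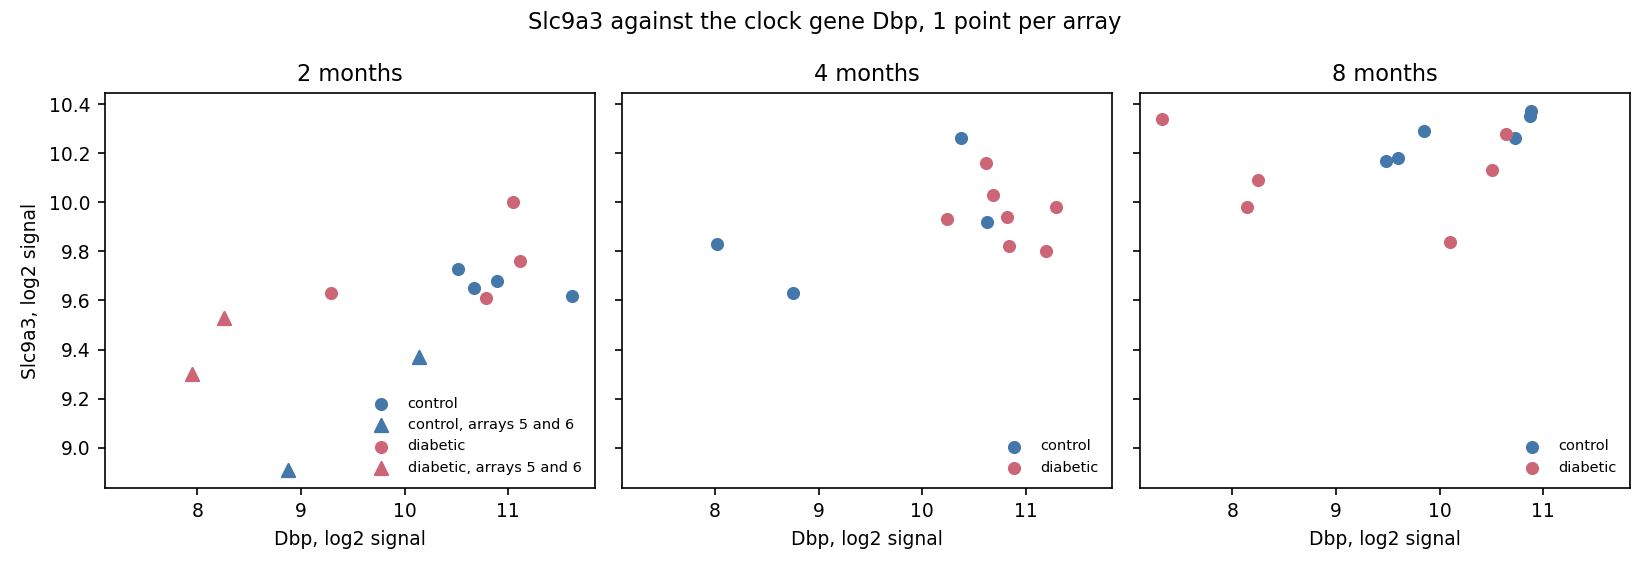
Log2 signal of Slc9a3 (vertical axis) against that of the clock gene Dbp (horizontal axis) at 2, 4 and 8 months, 1 point per array, control in blue and diabetic in red, with triangles for the 2-month arrays 5 and 6. The triangles hold the lowest Slc9a3 signals of 2 months, and at 8 months the array with Dbp at 7.32 has Slc9a3 at 10.34.

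Slc9a3r1, the NHERF1 gene, was not called at any age on any of its 3 probe sets. On the brightest (1438115_a_at) the 2-month controls ran from 11.69 to 12.09 and the diabetic arrays from 11.63 to 11.89, a difference of -0.11 ± 0.08 (95% interval -0.28 to 0.06; adjusted p of limma = 0.596). At 4 months the controls stood at 11.62, 11.93, 11.60 and 11.61 and the diabetic arrays ran from 11.49 to 11.92, with means of 11.69 ± 0.16 (SD, n = 4) and 11.69 ± 0.18 (SD, n = 7). At 8 months the controls ran from 11.77 to 11.94 and the diabetic arrays from 11.56 to 12.01, a difference of -0.06 ± 0.08 (95% interval -0.23 to 0.11; adjusted p of limma = 0.711). The groups overlapped at each age, and the 3 intervals lie within 0.28 of no difference.

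The other probe sets of Slc9a3r1 stood between -0.10 and 0.07 (adjusted p of at least 0.602 in limma over the 23003 probe sets tested, of which 1.7%, 0.6% and 13.1% were called at 2, 4 and 8 months). As for Slc9a8, the diabetic arrays of 4 months were not uniform: arrays 3, 4 and 7 had Slc9a3r1 at 11.92, 11.89 and 11.82, and arrays 1, 2, 5 and 6 at 11.59, 11.60, 11.51 and 11.49. Over all 35 arrays, with the group means taken off, the brightest probe sets of Slc9a3r1 and Slc9a8 correlated with r = 0.08, and those of Slc9a2 and Slc9a3 with Slc9a8 at 0.21 and -0.08, given as descriptions.

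The diabetes effect was set against itself between ages. For Slc9a8 it differed by 0.04 ± 0.26 between 4 and 2 months, -0.24 ± 0.26 between 8 and 4 months and -0.20 ± 0.25 between 8 and 2 months. Each of these was smaller than its SE. For Slc9a3 the effect at 8 months was lower than at 2 months by 0.30 ± 0.17, which was not called (adjusted p of limma = 0.355; 3.89% of genes were called in that comparison, 0.877% between 8 and 4 months and 0 between 4 and 2 months). For Slc9a3r1 the same contrast was 0.05 ± 0.12 (adjusted p of limma = 0.877).

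Levels at 8 and 2 months were also compared within each group. In this comparison 63.8% of all genes were called in controls and 66% in diabetic kidneys, and the mean of all probe sets on an array, 6.43 to 6.44 at 2 months, was 6.02 to 6.04 at 4 months and 6.54 at 8 months. The part of the arrays' scaling in a change with age was not tested. Slc9a3 rose by 0.77 ± 0.12 in controls (adjusted p of limma = 7.34e-07) and by 0.47 ± 0.12 in diabetic kidneys (adjusted p of limma = 0.000705), while the median over all genes was -0.14 and -0.11. With both its probe sets averaged the changes were 0.28 (adjusted p of limma = 0.00881) and 0.10 (adjusted p of limma = 0.329). Slc9a2 stood at -0.03 ± 0.11 in controls (adjusted p of limma = 0.846) and fell by 0.47 ± 0.11 in diabetic kidneys (adjusted p of limma = 0.000456). The difference between these 2 changes is the contrast of the diabetes effects given above for Slc9a2, which was not called as deposited. Slc9a8 stood at -0.23 ± 0.18 and -0.43 ± 0.18, and Slc9a3r1 at -0.02 ± 0.08 and 0.03 ± 0.08. After quantile normalization of all arrays the control changes turned to 0.040 for Slc9a2 and 0.24 for Slc9a3r1 (adjusted p of limma = 0.0134), and the change of Slc9a3r1 in diabetic kidneys was called as well, at 0.24 (adjusted p of limma = 0.0162). With all probe sets averaged the changes of Slc9a8 turned to 0.40 in controls and 0.15 in diabetic kidneys.

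6 other sodium-proton exchanger genes were too dim to be tested. They (Slc9a4, Slc9a5, Slc9a7, Slc9a9, Slc9b1 and Slc9b2) had 14 probe sets, and 0 of the genes passed the filter. Their means over all arrays were at most 4.81, and their differences ran from -0.18 to 0.42, the highest at a Slc9a9 probe set at 8 months. No test was made on these dim signals.

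Of 14 tested genes that hold the exchangers in the membrane or regulate them, 0 were called at 2 months and 0 at 4 months, beside 2.54% and 0.969% of all genes. At 8 months 2 rose and 1 fell, beside 9.87% and 6.95% of all genes. An unadjusted p under 0.05 in limma was found for 4, 2 and 6 of the 14 at 2, 4 and 8 months, and for 15.2%, 11.4% and 28.6% of all genes. The 8-month count was 5 after quantile normalization of all arrays, with the replicate block or with that age fitted alone, and 1 with all probe sets averaged. The 2-month count was 1 without arrays 5 and 6. Their median differences were -0.02, -0.04 and -0.06 at 2, 4 and 8 months, beside -0.01, 0.01 and -0.000362 over all genes. Dpp4, a brush border peptidase that binds NHE3, rose at 8 months from 9.62 ± 0.10 (SD, n = 6) to 9.98 ± 0.11 (SD, n = 6), by 0.36 ± 0.08 (adjusted p of limma = 0.00204). Ezr, the gene for ezrin, rose by 0.22 ± 0.07 (adjusted p of limma = 0.0236). Pth1r, the receptor of parathyroid hormone, which lowers NHE3 activity, fell by 0.33 ± 0.10 (adjusted p of limma = 0.0168). The diabetic and control arrays of these 3 genes overlapped.

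The Dpp4 call held without any 1 of the 12 arrays of 8 months. Those of Ezr and Pth1r were lost without diabetic array 3 and that of Ezr also without diabetic array 5 or control 4, with adjusted p of at most 0.0823 in limma. With all probe sets of a gene averaged Dpp4 stood at 0.12 (adjusted p of limma = 0.368) and Ezr at 0.08 (adjusted p of limma = 0.375).

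Among 15 genes for transporters and enzymes that work with the exchangers in sodium, acid and bicarbonate transport, 2 rose at 2 months, 0 were called at 4 months and 4 fell at 8 months. Of all genes 0.754% rose at 2 months, 0.969% were called at 4 months and 6.95% fell at 8 months. The medians of the 15 were 0.07, -0.05 and -0.04, and 5, 3 and 7 had an unadjusted p under 0.05 in limma. The 2-month count was 4 after either quantile normalization, 1 with no filter or with all probe sets averaged, and 0 with that age fitted alone. The 4-month count was 1 after either quantile normalization and 2 with that age fitted alone. Slc26a6, an anion exchanger of the proximal tubule that works in parallel with NHE3, rose at 2 months by 0.52 ± 0.14, from 8.24 ± 0.13 (SD, n = 6) to 8.76 ± 0.33 (SD, n = 6; adjusted p of limma = 0.0403). It stood at 0.59 ± 0.15 at 4 months, where the 7 diabetic arrays (8.06 to 8.88) lay above the 4 controls (7.71 to 7.97), as in either direction for 4.81% of all genes, and the call was missed (adjusted p of limma = 0.0536). After quantile normalization Slc26a6 was called at 4 months (adjusted p of limma = 0.0240), and its 2-month call was lost without any 1 of 8 arrays and with no filter (adjusted p of limma = 0.0523). Atp6v1b2, a subunit of the proton pump, rose at 2 months by 0.24 ± 0.06 (adjusted p of limma = 0.0202). Its call was lost without diabetic array 3 or control 1 (adjusted p of at most 0.0685 in limma), and with all its probe sets averaged it stood at 0.094 (adjusted p of limma = 0.407). Fitted on the 2-month arrays alone neither was called (adjusted p of limma = 0.309 for Atp6v1b2 and 0.116 for Slc26a6).

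The transporters that fell at 8 months were Slc34a1, the phosphate transporter tethered by NHERF1, by 0.27 ± 0.08 (adjusted p of limma = 0.0107), and Slc34a3, a second phosphate transporter, by 0.51 ± 0.18 (adjusted p of limma = 0.042). Slc12a1, the sodium-potassium-chloride cotransporter of the thick ascending limb, fell by 0.29 ± 0.09 (adjusted p of limma = 0.0223), and Kcnj1, the potassium channel of the same membrane, by 0.33 ± 0.09 (adjusted p of limma = 0.00918). For Slc34a1, Slc12a1 and Kcnj1 all 6 diabetic arrays lay below all 6 controls, as for 4.28% of all genes (9.7% counting both directions; 1.5% at 2 months). For Slc34a3 the diabetic arrays ran from 8.84 to 10.76 around controls at 10.47 to 10.74, and the call was lost without any 1 of 7 arrays. The call of Slc12a1 was lost without diabetic array 3 (adjusted p of limma = 0.0612), and those of Slc34a1 and Kcnj1 held without any 1 array. Fitted on the 8-month arrays alone Slc34a1 and Slc34a3 were not called (adjusted p of limma = 0.0688 and 0.188), and with the replicate block Slc34a3 was not called (adjusted p of limma = 0.0524). With all probe sets averaged Kcnj1 stood at -0.35 (adjusted p of limma = 0.137) and Slc12a1 at -0.33 (adjusted p of limma = 0.0701).

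**Figure D4:**
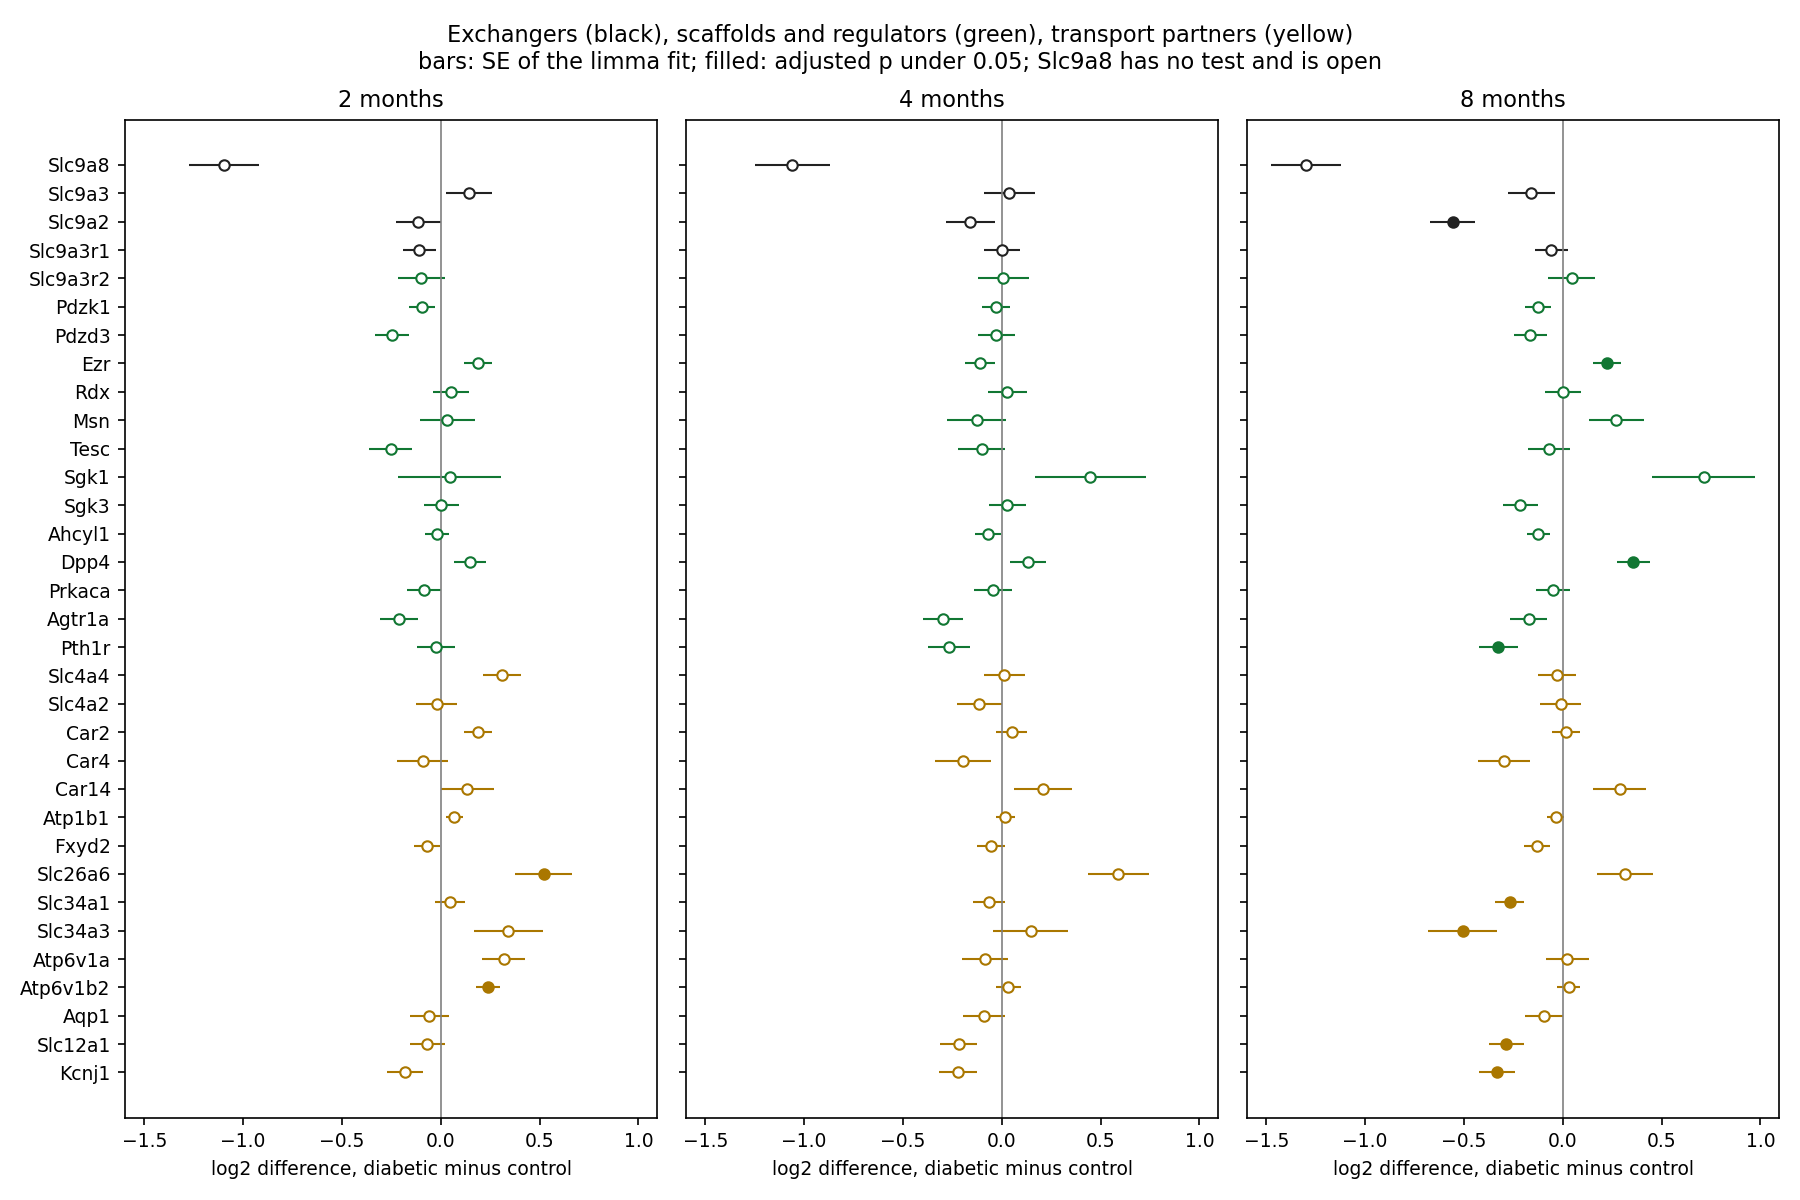
Log2 difference, diabetic minus control (horizontal axis), of the 4 members in black, 14 scaffold and regulator genes in green and 15 transport partners in yellow (vertical axis) at 2, 4 and 8 months; bars are SEs of the limma fit and filled points have an adjusted p under 0.05. Slc9a8, drawn open because it has no test, lies near -1.1 at 2 and 4 months and at -1.30 at 8 months, to the left of all other genes drawn, and Slc9a2 is the filled black point at 8 months.

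Markers of the cells that carry the exchangers moved with diabetes as well, with most calls at 8 months. Of 9 proximal tubule markers 0 were called at 2 months (median -0.04), 0 at 4 months (median -0.17) and 6 fell at 8 months (median -0.44). Of all genes 1.78%, 0.554% and 6.95% fell at 2, 4 and 8 months. The mean of the 9 signals ran from 11.77 to 12.11 in controls and 11.85 to 12.24 in diabetic kidneys at 2 months. At 4 months it ran from 11.47 to 11.66 and from 11.26 to 11.47, and at 8 months from 11.61 to 11.78 and from 10.95 to 11.54. Beside the fall of Slc9a2 at 8 months, 3 of 4 distal convoluted tubule markers fell (median -0.68), with list means from 11.23 to 11.36 in controls and 10.12 to 10.95 in diabetic kidneys. At 2 and 4 months 0 of these 4 markers were called (medians -0.24 and -0.25). Of 8 thick ascending limb markers 2 fell at 2 months, 0 were called at 4 months and 6 fell at 8 months (medians -0.20, -0.26 and -0.31). The part of these markers in the differences of the exchangers was not tested.

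Macrophage markers and tubular injury genes rose at 8 months, an age at which 9.87% of all genes rose. Of 6 macrophage markers 5 rose (median 1.75), with list means from 7.57 to 8.04 in controls and 8.83 to 10.33 in diabetic kidneys. Of 6 tubular injury genes 6 rose (median 2.45), with list means from 7.46 to 7.88 and from 9.05 to 11.22. At 4 months 0 macrophage markers and 1 injury gene were called (medians 0.37 and 0.57), beside 0.969% of all genes, and the list means did not overlap. They ran from 6.99 to 7.25 in controls and 7.29 to 7.98 in diabetic kidneys for the macrophage markers, and from 6.90 to 7.10 and 7.34 to 8.04 for the injury genes. At 2 months 0 of either were called (medians 0.05 and -0.08), beside 2.54% of all genes. The 2-month list means overlapped, at 7.41 to 7.70 and 7.42 to 7.66 for the macrophage markers and 7.15 to 7.45 and 7.05 to 7.73 for the injury genes. At 8 months 4 of 5 fibroblast and 3 of 3 lymphocyte markers also rose (medians 0.92 and 0.56). At that age 3 of 5 intercalated cell markers and 2 of 4 fat markers fell (medians -0.35 and -0.90), beside 6.95% of all genes. The fat markers were split. Ucp1 (-2.20) and Cidea (-2.22) fell, while Adipoq (0.85) and Fabp4 (0.39) stood higher without being called. At 4 months 2 of the 5 intercalated cell markers and 1 of the 4 fat markers, Ucp1, had fallen, beside 0.554% of all genes. The part of these lists in the differences of the exchangers was not tested.

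Several genes shared the pattern of Slc9a8 over the 35 arrays. With the mean of each age taken off, Pearson correlations were ordered among the genes tested, with Gm-number, LOC, Rik and cDNA names passed over. Rnf24, a ring finger gene (r = 0.92), and Lpl, the gene for lipoprotein lipase (r = 0.91), were highest. Slc15a2, a peptide transporter of the proximal tubule, followed (r = 0.90). So did Kyat3, an aminotransferase that makes kynurenic acid (r = 0.90), and Aadat, another such aminotransferase (r = 0.90). The Spearman rho of all these genes lay between 0.87 and 0.91. Rnf24 stood at -1.21 ± 0.28, -0.98 ± 0.30 and -1.42 ± 0.28 at 2, 4 and 8 months, and Lpl at -0.96 ± 0.15, -0.86 ± 0.16 and -1.01 ± 0.15.

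The lowest correlations were those of Ephx1, an epoxide hydrolase (r = -0.88), Akr1c12, an aldo-keto reductase (r = -0.88), and Arnt2, a transcription factor gene (r = -0.85). Ephx1 was higher in diabetic kidneys, at 0.59 ± 0.10, 0.68 ± 0.11 and 0.83 ± 0.10. These values hold the difference between diabetic and control kidneys. With the mean of each group taken off instead, Rnf24 still had the highest r of all genes to Slc9a8, at 0.78, while Lpl stood at 0.60, Slc15a2 at 0.46, Kyat3 at 0.57 and Aadat at 0.61. Ephx1, Akr1c12 and Arnt2 then stood at -0.40, -0.64 and -0.46. With all probe sets of a gene averaged Arnt2 stood at -0.45 and Slc15a2 at 0.80 with the age means taken off. The likeness is a description, since Slc9a8 was chosen for its pattern.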

How the data were processed

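Total RNA was extracted with Trizol from whole kidney, and 5 ug of it gave the biotinylated cRNA for the Affymetrix arrays, per the labels' protocols. The authors deposited log2 signals of 45101 probe sets on 35 arrays; the scale is read from the value range, and no source used here gives the background correction, summarization or normalization. Probe sets naming 1 gene (34945) were used. The probe set with the highest mean represented each gene, genes below 5.273, the 40th percentile, were left out, and 13004 of 18193 genes were tested. Group means were fitted with limma 3.58.1 on R 4.3.3 (with data.table, version 1.17.8; 29 residual and 33.7 total degrees of freedom), and two-sided p-values were adjusted by Benjamini and Hochberg. The fit was tested on simulated data. The members, the gene lists and the rule for named genes were chosen with earlier results of these data known. The rule took the 4 members, the other exchangers reported and up to 6 called genes of each list. It also took the genes most and least correlated with Slc9a8, with Gm-number, LOC, Rik and cDNA names passed over. Same-numbered arrays are not called pairs by the labels, and the main fit did not pair them. They correlated at 2 months (r from 0.246 to 0.444 in 6 of 6 pairs), and less at 4 months (0.048 to 0.177) and 8 months (-0.142 to 0.233). The replicate block, an alternative, paired them at all 3 ages. Alternatives were quantile normalization, no filter, all probe sets averaged, each age fitted alone, the replicate block, and arrays left out.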

Additional observations from a re-analysis of the deposited data

Results flagged for a closer look

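Each of the 10 probe sets was looked at in each of the 6 groups for a single array far from the others, by the gap to the nearest array over the range of the group. Of these 60 looks 4 passed the 95% limit, and chance gives about 1 in 20. On the second Slc9a8 probe set control 5 of 2 months stood at 8.62, where the other 5 controls ran from 6.27 to 6.93. On the dimmest Slc9a8 probe set, which lies below the filter, control 1 of 2 months stood at 4.47, against 4.76 to 4.90. On the brightest Slc9a3r1 probe set control 2 of 4 months stood at 11.93, against 11.60 to 11.62. On the dimmest Slc9a3r1 probe set (1450982_at) control 6 of 2 months stood at 10.52, against 11.56 to 11.71, and this array also had the highest excess of 3' over 5' beta-actin signal, 2.56.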

How the results depend on the processing

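With all probe sets of a gene averaged Slc9a8 stood at -0.42, -0.49 and -0.67 at 2, 4 and 8 months, its effect differed by -0.074 between 4 and 2 months, and it stood at 0.40 in controls and 0.15 in diabetic kidneys at 8 against 2 months. The same averaging put Kcnj1, Slc12a1 and Dpp4 at 0.081, 0.12 and -0.015 at 2 months. For Slc9a3r1 it gave -0.0099 for the effect at 8 against 2 months and 0.18 for controls at 8 against 2 months. Quantile normalization of all arrays gave -0.0094 and 0.24 for these, Slc9a2 0.040 in controls at 8 against 2 months and Pth1r 0.012 at 2 months. Within each age it gave -0.000978 and 0.00425 for Slc9a3r1 and 0.014 for Pth1r. Without the 2-month arrays 5 and 6 Pth1r stood at 0.024. Without 4-month controls 3 and 4 Slc9a3 stood at -0.14, and 5 genes were called. Fits of one age alone called 64 genes at 2 and 358 at 4 months. The causes were not tested.

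The replicate block called 553 genes at 2 months and put the effect of Slc9a2 at 0.067 between 4 and 2 months. It left Slc9a2 at -0.56 at 8 months (adjusted p of limma = 0.000425) and changed no member's call. It was not run for 8 against 2 months within a group, since the numbers lie within ages.

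Leaving out 1 array gave 192 to 515 genes at 2 months, over 1.5 times from the 330 without diabetic 2 or control 1, 2 or 5. It gave 29 to 135 genes at 4 months (diabetic 5, control 3 or 4) and 1633 to 2329 at 8 months. Slc9a3 at 4 months ran from -0.054, without control 3, to 0.16. At 2 months Slc12a1 ran from -0.12 to 0.040 and Pth1r from -0.085 to 0.042. Slc9a8 stayed between -1.45 and -0.92 over all ages.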
